A study of Mus musculus with 9 samples.

Results

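The 10 genes described here encode adaptors and ubiquitin enzymes that stand between the receptor CD40 and the transcription factor NF-kB: Traf1, Traf2, Traf3, Traf5, Traf6, Tifa, Otub2, Birc2, Birc3 and Tank. They were taken by symbol from the 22977 genes kept from 9 tables of gene expression, and all 10 were found. The genes were proposed because some were high in dark zone cells and others in light zone cells, so their differences between the zones are given as a description with no test. The study concerns the role of Foxo1, a transcription factor, in the germinal center, and the RNA came from mouse spleen in 3 groups of 3 libraries. Foxo1-deficient cells were Foxo1(f/f), of genotype CD45.1/2, and were sorted as germinal center cells without any gate on zone. Dark zone cells (DZ, low CD86 and high CXCR4) and light zone cells (LZ, high CD86 and low CXCR4) were wild type, Foxo1(+/+), of genotype CD45.1/1. Every donor cell, wild type included, carried ERT2cre(KI/+), a recombinase that tamoxifen switches on, and B1-8hi(KI/+), an antigen receptor chain for the hapten NP. Foxo1(f/f) and wild-type B cells were transferred together in equal parts into C57BL/6 mice. The mice were immunized with NP-CGG on day 0 and given tamoxifen from day 7 to day 9, and about 10000 cells per sample were sorted on day 12. Genotype and zone gate differ together between Foxo1-deficient and wild-type libraries, so their effects cannot be told apart.

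CD40 and its relatives have no enzyme activity of their own and recruit TRAF proteins when T cells engage them. TRAF2 and TRAF3 bring the ubiquitin ligases cIAP1 (gene Birc2) and cIAP2 (gene Birc3) to the kinase NIK, which is degraded at rest and accumulates once CD40 or the BAFF receptor takes TRAF3 away, opening the alternative NF-kB pathway. TRAF6, shared by CD40 and the Toll receptors, builds ubiquitin chains that activate the kinase TAK1 and the classical NF-kB pathway. In the germinal center, light zone B cells meet antigen and T cells that carry CD40 ligand, and in the dark zone they proliferate and diversify their antibody genes by mutation.

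The unit throughout is FPKM, the fragments of a gene per kilobase of its transcript after scaling for library size, so levels are per length and genes can be compared with each other. Differences are between log2(FPKM + 1) values, a scale that shrinks changes of low genes, with the standard error (SE) from limma, and values given as mean ± SD are FPKM with n = 3. Foxo1 itself had 3.01, 1.79 and 0.81 FPKM in Foxo1-deficient libraries, against 24.5, 19.5 and 19.1 FPKM in DZ and 14.8, 18.7 and 22.1 FPKM in LZ, a log2 difference of -2.92 from the midpoint of the zones (the mean of the DZ and LZ log2 means; SE 0.26, adjusted p = 0.000257, limma). The depth estimated from the deposited confidence intervals was 0.820 to 1.15 times the mean of the libraries. Pearson's r between replicates, over the tested genes, was 0.868 to 0.915 in Foxo1-deficient cells, 0.938 to 0.942 in DZ and 0.905 to 0.912 in LZ. Markers of germinal center B cells summed to 2078 to 2480 FPKM in Foxo1-deficient libraries, 1657 to 2013 in DZ and 2001 to 2242 in LZ, with all 11 of the listed markers in the files above 0. Of 15 myeloid markers, 13 were above 0 in Foxo1-deficient libraries, 6 in DZ and 4 in LZ, and their sums ran from 177.6 to 344.1, 0.784 to 5.14 and 3.07 to 7.57 FPKM in the same order of groups. Cd14 and Mpo were at 0 in every group. Erythroid and platelet markers summed to 169 to 553 FPKM in Foxo1-deficient libraries, 13.0 to 21.7 in DZ and 21.9 to 44.4 in LZ. Naive or memory B cell markers summed to 58.4 to 68.1 FPKM in Foxo1-deficient libraries, 47.8 to 64.3 in DZ and 195 to 258 in LZ. In LZ most of this sum was Fcer2a, at 143 to 195 FPKM. T cell markers summed to 15.0 to 25.6, 11.7 to 20.2 and 26.7 to 31.5 FPKM in these groups, with Cd3e, Cd3g and Cd4 at 0 in all of them. Most of each sum was Lck, at 14.6 to 24.8, 10.8 to 19.9 and 26.2 to 27.4 FPKM. Plasma cell markers summed to 233 to 355 FPKM in Foxo1-deficient libraries, 189 to 291 in DZ and 127 to 151 in LZ. Most of each sum was Igj and Xbp1, and Sdc1 and Prdm1 were at 2.33 FPKM or less in every library. Irf4 had 4.46 to 9.34, 1.71 to 5.52 and 8.66 to 11.6 FPKM in the same order of groups. The T cell and plasma cell sums therefore do not by themselves show that such cells were present. The part of any such other cells in the differences below was not tested. In such bulk samples fewer cells of a type and less RNA per cell cannot be told apart. For Foxo1(f/f) cells the labels list CD45.1/2 but say that the sorted cells were negative for CD45.2, a contradiction that could not be resolved.

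Promoter windows are shown for the 6 members whose DZ and LZ libraries did not overlap, because they fall into a pair high in DZ (Tifa, Otub2) and 4 high in LZ (Traf1, Traf3, Birc2, Birc3). Each runs from 250 bases before to 50 bases after an annotated transcription start in RefSeq (GRCm38.p6), 5′ to 3′ on the gene's strand. Capitals mark matches, on either strand, to the decamer consensus of the NF-kB kappa B site or to the 9-letter form GGGNNTTCC, and the forms can overlap.
Tifa (second listed start, chr3:127790407-127790706, plus strand): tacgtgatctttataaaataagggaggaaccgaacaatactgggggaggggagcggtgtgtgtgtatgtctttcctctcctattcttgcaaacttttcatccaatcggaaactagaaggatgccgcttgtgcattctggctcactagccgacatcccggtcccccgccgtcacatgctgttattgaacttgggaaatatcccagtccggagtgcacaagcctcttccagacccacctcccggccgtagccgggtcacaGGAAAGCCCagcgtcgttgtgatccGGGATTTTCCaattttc
Otub2 (second listed start, chr12:103388431-103388730, plus strand): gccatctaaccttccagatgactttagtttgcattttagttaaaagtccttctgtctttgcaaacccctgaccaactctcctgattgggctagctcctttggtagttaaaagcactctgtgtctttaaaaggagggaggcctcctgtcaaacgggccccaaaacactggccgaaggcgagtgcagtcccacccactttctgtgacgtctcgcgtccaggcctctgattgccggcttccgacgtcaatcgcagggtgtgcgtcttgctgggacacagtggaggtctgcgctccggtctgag
Traf1 (chr2:34961723-34962022, minus strand): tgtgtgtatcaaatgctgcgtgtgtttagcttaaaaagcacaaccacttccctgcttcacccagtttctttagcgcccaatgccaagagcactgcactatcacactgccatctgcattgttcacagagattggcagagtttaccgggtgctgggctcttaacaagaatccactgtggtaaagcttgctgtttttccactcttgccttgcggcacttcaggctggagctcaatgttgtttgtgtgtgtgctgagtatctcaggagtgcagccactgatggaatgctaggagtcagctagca
Traf3 (chr12:111166120-111166419, plus strand): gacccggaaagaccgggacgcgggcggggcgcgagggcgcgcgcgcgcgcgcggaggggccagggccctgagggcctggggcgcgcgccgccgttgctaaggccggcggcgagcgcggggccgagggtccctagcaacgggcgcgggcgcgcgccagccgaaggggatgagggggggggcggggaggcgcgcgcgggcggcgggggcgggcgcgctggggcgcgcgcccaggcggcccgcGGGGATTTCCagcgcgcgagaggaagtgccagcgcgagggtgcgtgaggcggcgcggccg
Birc2 (second listed start, chr9:7837008-7837307, minus strand): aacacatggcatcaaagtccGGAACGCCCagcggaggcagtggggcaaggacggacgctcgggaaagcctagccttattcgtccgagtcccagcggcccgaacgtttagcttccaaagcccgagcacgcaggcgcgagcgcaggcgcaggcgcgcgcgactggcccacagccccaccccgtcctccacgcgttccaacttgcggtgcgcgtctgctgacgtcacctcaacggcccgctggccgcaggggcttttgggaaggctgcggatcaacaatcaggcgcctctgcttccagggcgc
Birc3 (chr9:7873121-7873420, minus strand): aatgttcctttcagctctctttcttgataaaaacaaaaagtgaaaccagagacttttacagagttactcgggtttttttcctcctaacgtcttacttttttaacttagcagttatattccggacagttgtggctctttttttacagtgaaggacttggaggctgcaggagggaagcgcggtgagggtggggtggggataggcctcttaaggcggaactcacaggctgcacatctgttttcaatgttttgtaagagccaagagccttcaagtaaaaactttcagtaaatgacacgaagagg

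All 10 members matched the RefSeq table, with 17 windows, of which 7 held a kappa B match. Windows of a gene can overlap, so these are not 7 separate sites. Traf3 held GGGGATTTCC from 10 bases before the start, where both forms overlap. Tifa held GGGATTTTCC from base 34 of the transcribed side and a 9-letter match on the opposite strand from base 9, both at its second listed start. Birc2 held a 9-letter match on the opposite strand, from position -230 relative to the start shown above, and Tank held both forms in each of its 4 windows. The windows of Tifa and Birc2 that are not shown held no match. No window of Traf1, Traf2, Traf5, Traf6, Otub2 or Birc3 held either form, so the letters did not divide the members by zone. Over all 32851 windows of the table, 8.46% held the decamer and 5.82% the 9-letter form. The forkhead letters GTAAACA, searched on both strands because Foxo1 is a forkhead protein, were in 3.65% of all windows and in none of the members' windows. A match is only a run of letters, and its absence says nothing of binding.

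**Figure D1:**
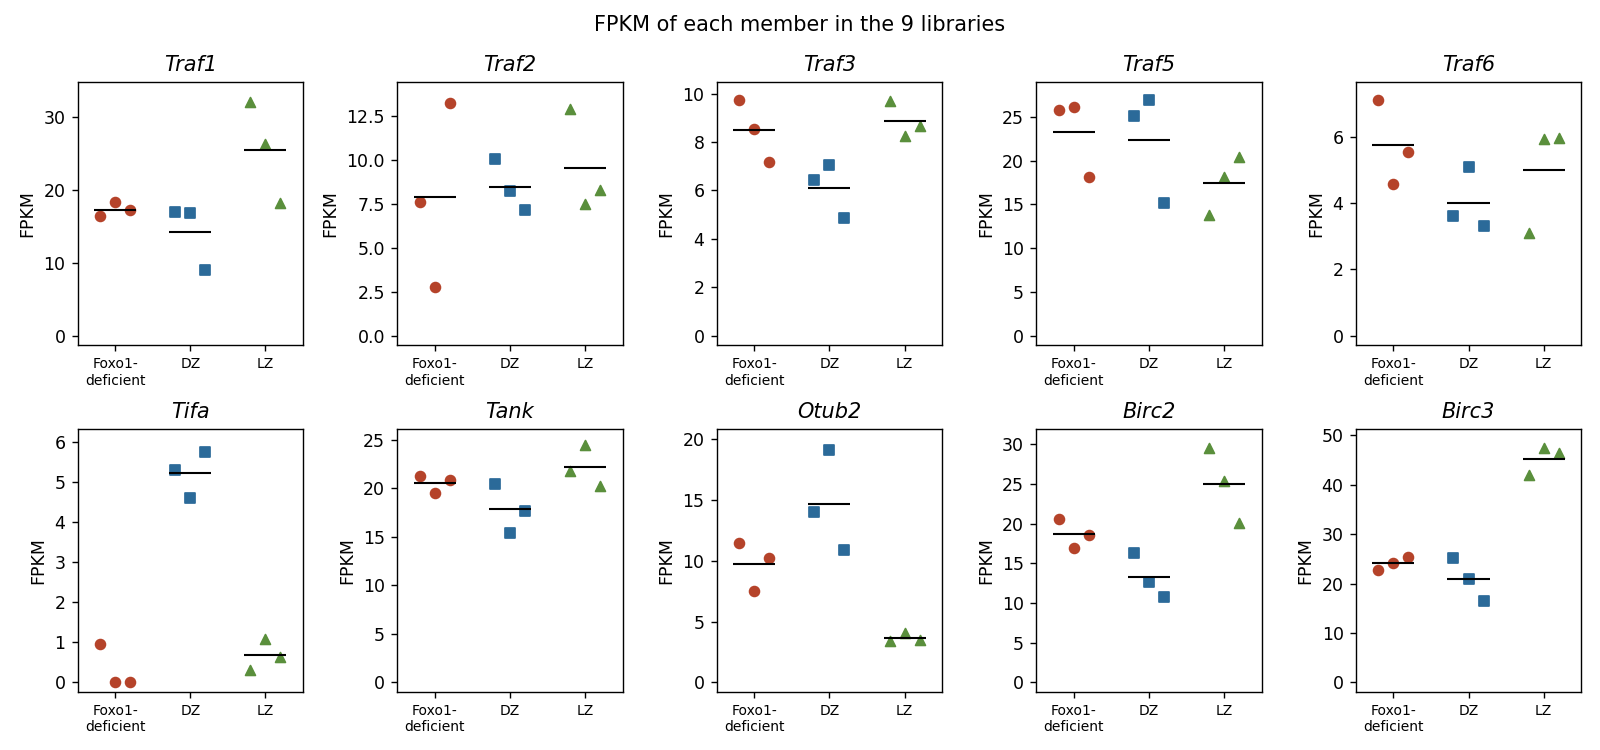
FPKM of each of the 10 members in the 9 libraries, with Foxo1-deficient, DZ and LZ libraries from left to right, points for libraries and a bar for the group mean (none for Tifa in Foxo1-deficient cells). Tifa and Otub2 lie higher in DZ than in LZ, Birc2 and Birc3 lie higher in LZ than in DZ, and Tifa is listed at 0 in 2 of 3 Foxo1-deficient libraries.

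TRAF2, the adaptor that carries cIAP ligases to receptors, differed widely between Foxo1-deficient libraries. Traf2 (chr2:25373501-25402414, mm9) had 7.61, 2.78 and 13.3 FPKM in Foxo1-deficient libraries, against 10.1, 8.24 and 7.14 in DZ and 12.9, 7.51 and 8.28 in LZ. The Foxo1-deficient libraries held both the lowest and the highest value of all 9, and the deposited 95% intervals of these 3 values, 6.17 to 9.03, 2.03 to 3.51 and 10.9 to 15.5 FPKM, did not overlap. The group means were 7.89 ± 5.25, 8.48 ± 1.49 and 9.56 ± 2.92 in Foxo1-deficient, DZ and LZ cells. Against the zone midpoint the difference was -0.35 (95% interval -1.14 to 0.45, adjusted p = 0.691, limma), so a change of more than 2-fold lower was within the interval.

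TRAF3, which holds NIK down in resting B cells, was higher in Foxo1-deficient and LZ libraries than in DZ libraries. Traf3 (chr12:112404758-112505359, mm9) had 9.75, 8.53 and 7.18 FPKM in Foxo1-deficient libraries, against 6.45, 7.03 and 4.84 in DZ and 9.68, 8.26 and 8.66 in LZ. Every Foxo1-deficient and every LZ library lay above every DZ library, and Foxo1-deficient and LZ libraries overlapped. The log2 difference from the zone midpoint was 0.18 (95% interval -0.26 to 0.62, adjusted p = 0.714, limma), and that from DZ was 0.42 (SE 0.23, adjusted p = 0.411, limma).

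TRAF1, which joins TRAF2 complexes and is a known NF-kB target gene, was among the members high in LZ. Traf1 (chr2:34798777-34817292, mm9) had 16.4, 18.4 and 17.2 FPKM in Foxo1-deficient libraries, against 16.9, 16.9 and 9.06 in DZ and 32.1, 26.3 and 18.3 in LZ. The lowest LZ library exceeded the highest DZ library by little, and the highest Foxo1-deficient library reached that lowest LZ value. The DZ mean was 0.56 times the LZ mean (14.3 ± 4.54 and 25.6 ± 6.94). The log2 difference of DZ from LZ, -0.81 (SE 0.27), was -0.53 without DZ replicate 3. That library was the lowest of its group for 8 of the 10 members, which summed to 101 FPKM there, against 143 and 137 in the other DZ libraries. It was also low as a whole, with 249729 FPKM over all entries, against 300586 and 310677 in the other DZ libraries. Without it the median difference of DZ from LZ over all tested genes went from -0.15 to -0.06. In Foxo1-deficient cells Traf1 averaged 17.3 ± 0.989 and differed from the zone midpoint by -0.10 (95% interval -0.61 to 0.42, adjusted p = 0.878, limma).

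TRAF5, a close relative of TRAF2 and TRAF3 that also binds CD40, leaned toward DZ with overlap. Traf5 (chr1:193821087-193916445, mm9) had 25.8, 26.1 and 18.1 FPKM in Foxo1-deficient libraries, against 25.1, 27.0 and 15.2 in DZ and 13.8, 18.1 and 20.4 in LZ. The groups overlapped in every pair, and the DZ mean was 1.29 times the LZ mean. Its difference from the zone midpoint was 0.24 (95% interval -0.25 to 0.72, adjusted p = 0.656, limma). Traf5 averaged 23.3 ± 4.51, 22.4 ± 6.35 and 17.4 ± 3.35 FPKM in Foxo1-deficient, DZ and LZ cells. Among the TRAF members described here it was the most abundant in Foxo1-deficient and DZ cells and second to Traf1 in LZ. Traf5 and Traf1 libraries overlapped in all 3 groups.

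TRAF6, the ligase of the Toll and CD40 branch, was the least abundant of the TRAF members described here in each group by its mean. Traf6 (chr2:101518596-101541131, mm9) had 7.09, 4.57 and 5.53 FPKM in Foxo1-deficient libraries, against 3.60, 5.08 and 3.29 in DZ and 3.10, 5.93 and 5.96 in LZ. The groups overlapped in every pair, and LZ replicate 1 was below every other library. The difference from the zone midpoint was 0.31 (95% interval -0.27 to 0.89, adjusted p = 0.616, limma).

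TIFA, an adaptor that gathers TRAF6 into active clusters, had its highest levels in DZ. Tifa (chr3:127492830-127501307, mm9) was listed at 0.957, 0 and 0 FPKM in Foxo1-deficient libraries, against 5.31, 4.62 and 5.76 in DZ and 0.307, 1.09 and 0.647 in LZ. Every DZ library was above every library of the other groups, and Foxo1-deficient and LZ libraries overlapped. In DZ the deposited 95% intervals ran from 3.30 to 7.24 FPKM over the 3 libraries, and in the Foxo1-deficient library with a value above 0 from 0.495 to 1.36. The DZ mean (5.23 ± 0.574) was 7.67 times the LZ mean (0.682 ± 0.394). Tifa rested on few reads, with a median of 18 fragments per library estimated from the intervals (range 0 to 61), and passed the expression filter through its 3 DZ libraries and 1 LZ library. Genes with a failed status were left out, and whether a 0 of Tifa means absent RNA was not tested. Among 9032 well-covered genes, which do not include Tifa, the Foxo1-deficient libraries listed 10, 67 and 233 at 0, against 9, 19 and 33 in DZ and 63, 11 and 52 in LZ. Why those genes were listed at 0 was not tested.

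The log2 difference of Tifa in Foxo1-deficient cells was -2.31 from DZ (SE 0.36). It is given with no test, since the member was chosen for its DZ values and entered the fit through them. With the values of 0 left out, an alternative chosen after seeing the data that leaves 1 Foxo1-deficient library, it was -1.67. Against LZ the difference was -0.40 (SE 0.36, adjusted p = 0.676, limma). Against the zone midpoint it was -1.36 (95% interval -2.04 to -0.67) and missed the threshold at an adjusted p of 0.0535 (limma), in a fit that Tifa also entered mainly through DZ. This difference passed in 3 of 16 alternatives, with adjusted p-values of 0.0179 to 0.481 (limma). Without Foxo1-deficient replicate 1 it was -1.68 (adjusted p = 0.0384, limma), without replicate 2 or 3 it was -1.19 (adjusted p = 0.189 and 0.199, limma), and with the values of 0 left out it was -0.71 (adjusted p = 0.481, limma). Alpk1, the kinase that switches TIFA on after sensing a bacterial sugar, is the neighbouring gene at a distance of 9385 bases and was listed at 0 to 0.872 FPKM in all 9 libraries. Ap1ar, the neighbour on the other side at 8875 bases, had 5.08, 13.1 and 4.04 FPKM in Foxo1-deficient libraries, against 8.13, 6.52 and 4.23 in DZ and 6.72, 5.67 and 11.3 in LZ, without the DZ peak of Tifa.

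TANK, an adaptor that links TRAFs to the kinases TBK1 and IKK epsilon, had similar levels in all groups. Tank (chr2:61416642-61492226, mm9) had 21.3, 19.5 and 20.9 FPKM in Foxo1-deficient libraries, against 20.4, 15.4 and 17.7 in DZ and 21.8, 24.5 and 20.3 in LZ. The Foxo1-deficient libraries overlapped those of both zones. The difference from the zone midpoint was 0.05 (SE 0.15, adjusted p = 0.909, limma), and its SE was the smallest of the 10 members.

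The genes of the cIAP ligases lie next to each other on chromosome 9, with 13445 bases between them, and both were higher in LZ than in DZ. Birc2 (chr9:7818225-7835255, mm9) had 20.5, 16.9 and 18.5 FPKM in Foxo1-deficient libraries, against 16.3, 12.7 and 10.7 in DZ and 29.5, 25.4 and 20.1 in LZ. Birc3 (chr9:7848700-7873170, mm9) had 22.7, 24.1 and 25.4 FPKM in Foxo1-deficient libraries, against 25.2, 21.0 and 16.5 in DZ and 42.0, 47.4 and 46.5 in LZ. For Birc2 every Foxo1-deficient library lay above every DZ library and overlapped LZ, whereas for Birc3 the Foxo1-deficient libraries overlapped DZ and all lay below LZ. The DZ mean was 0.530 times the LZ mean for Birc2 and 0.462 times for Birc3, and without DZ replicate 3 the log2 differences of DZ from LZ were -0.74 and -0.95, against -0.87 and -1.10 with it.

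Birc3 fell in Foxo1-deficient cells relative to LZ by 0.88 on the log2 scale (SE 0.18, 95% interval -1.28 to -0.49, adjusted p = 0.0391, limma), with means of 24.1 ± 1.34 and 45.3 ± 2.90 FPKM. The LZ libraries of this comparison also entered the values the member was chosen by, and the call held in 6 of 17 alternatives. Leaving out any Foxo1-deficient or LZ library, or DZ replicate 2, ended it (adjusted p of 0.0652 to 0.129, limma), while the difference stayed between -0.94 and -0.61 in every alternative. The sum of naive or memory B cell markers, higher in LZ mostly through Fcer2a, moved with it, and the part of such cells was not tested. Against DZ the difference of Birc3 was 0.21 (SE 0.18, adjusted p = 0.609, limma) and against the zone midpoint -0.34 (SE 0.16, adjusted p = 0.351, limma). Birc2 differed from LZ by -0.39 (SE 0.21, adjusted p = 0.461, limma), from DZ by 0.48 (SE 0.21, adjusted p = 0.298, limma) and from the zone midpoint by 0.04 (SE 0.19, adjusted p = 0.934, limma).

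The ligase pair was also read as a sum and as a ratio, chosen after the levels were seen. Birc2 and Birc3 together had 43.3, 41.0 and 43.9 FPKM in Foxo1-deficient libraries, against 41.6, 33.6 and 27.2 in DZ and 71.5, 72.8 and 66.6 in LZ. Every LZ sum stood above every sum of the other groups, and Foxo1-deficient and DZ sums overlapped. Both genes are members high in LZ, so the distance of LZ from DZ follows from the choice of members, and nothing is read from it. The ratio of Birc3 to Birc2 was 1.11, 1.42 and 1.37 in Foxo1-deficient libraries, 1.55, 1.65 and 1.54 in DZ and 1.42, 1.87 and 2.31 in LZ. Birc3 exceeded Birc2 in all 9 libraries, and the ratio was lower in every Foxo1-deficient library than in every DZ library. Over the 9 libraries the log2 levels of the pair correlated at r = 0.837, a description of libraries that share zones and depth. Tmem123, the gene beyond Birc2 at 23893 bases, had 85.5, 63.2 and 68.9 FPKM in Foxo1-deficient libraries, against 59.8, 56.1 and 60.0 in DZ and 89.8, 107 and 91.6 in LZ. Its DZ libraries were lowest and its LZ libraries highest, with no overlap between groups, and Yap1, the gene beyond Birc3, was listed at 0 in all 9 libraries.

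**Figure D2:**
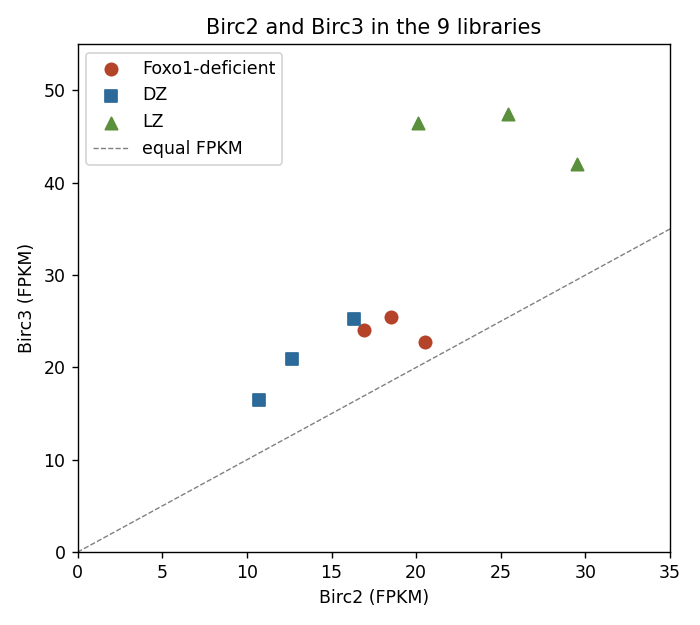
Birc2 (x axis) against Birc3 (y axis) in FPKM, 1 point per library, coloured by Foxo1-deficient, DZ and LZ. The LZ libraries stand apart at 42.0 to 47.4 FPKM of Birc3, and Foxo1-deficient libraries overlap DZ in Birc3 and lie above DZ in Birc2. The distance of LZ from DZ follows from the choice of members, and nothing is read from it. The dashed line marks equal FPKM.

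OTUB2 removes ubiquitin and has been reported in human cells to take it off TRAF3 and TRAF6. Otub2 (chr12:104615103-104644560, mm9) had 11.5, 7.54 and 10.2 FPKM in Foxo1-deficient libraries, against 14.0, 19.1 and 10.9 in DZ and 3.41, 4.10 and 3.48 in LZ. Every Foxo1-deficient and every DZ library was above every LZ library, and Foxo1-deficient libraries overlapped DZ. The Foxo1-deficient mean (9.75 ± 2.02) was 2.66 times the LZ mean (3.66 ± 0.380), a log2 difference of 1.19 (95% interval 0.62 to 1.76) that missed the threshold (adjusted p = 0.0501, limma). The LZ libraries of this comparison also entered the values Otub2 was chosen by, so it is no independent support. Over the alternatives its adjusted p ran from 0.0189 to 0.149 (limma), and it passed under quantile normalization, median centring and voom weights. Against DZ (14.6 ± 4.15) the difference was -0.53 (SE 0.26, adjusted p = 0.352, limma), and against the zone midpoint 0.33 (SE 0.23, adjusted p = 0.527, limma). Birc3 per Otub2 was 1.98, 3.20 and 2.49 in Foxo1-deficient libraries, 1.80, 1.10 and 1.52 in DZ and 12.3, 11.6 and 13.4 in LZ. Every Foxo1-deficient ratio lay above every DZ ratio and below every LZ ratio. This ratio was chosen after the levels were seen and divides a member high in LZ by one high in DZ. The distance of LZ follows from that choice, and nothing is read from it. Ddx24, the neighbour of Otub2 at 1625 bases, had 22.8, 23.7 and 11.1 FPKM in Foxo1-deficient libraries, against 29.1, 29.2 and 24.0 in DZ and 21.6, 21.0 and 25.1 in LZ, so its zones overlapped.

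**Figure D3:**
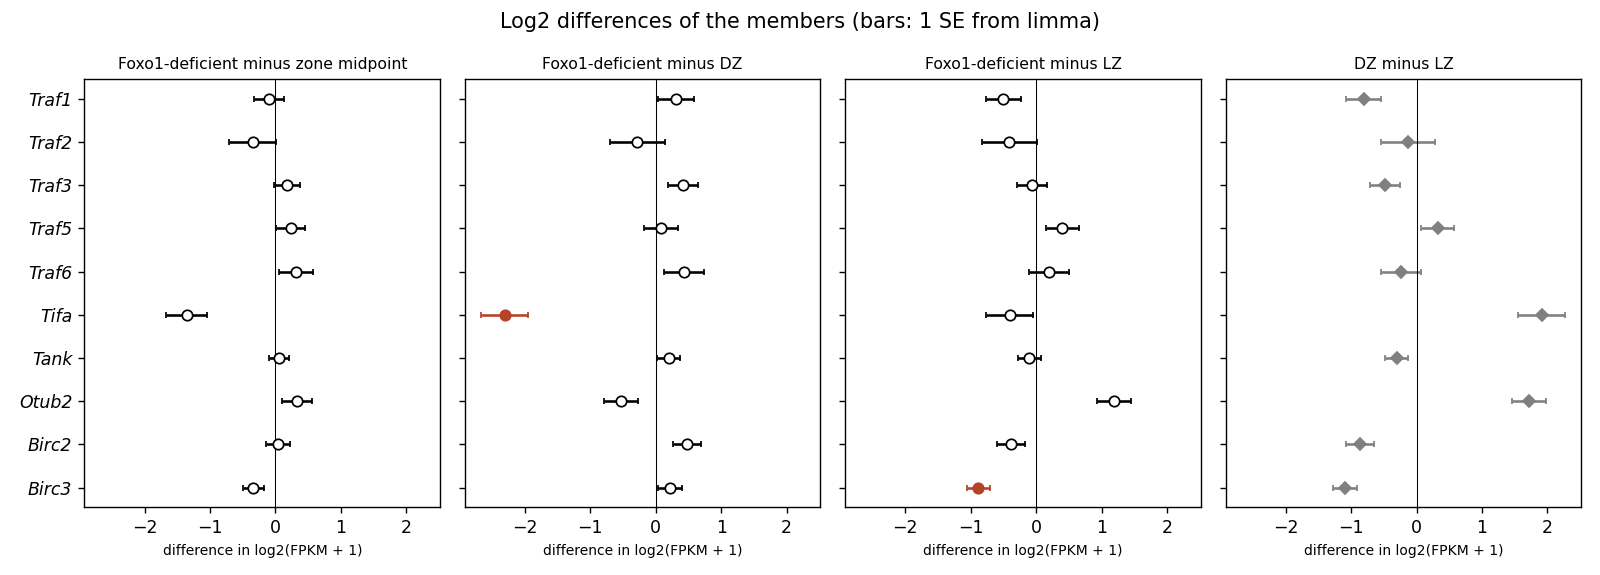
Log2(FPKM + 1) differences of the 10 members (x axis), with bars of 1 SE from limma, for Foxo1-deficient minus zone midpoint, Foxo1-deficient minus DZ, Foxo1-deficient minus LZ and DZ minus LZ. Tifa stands lowest against DZ and Birc3 lowest against LZ, and no member passes against the zone midpoint. Filled red points lie past the adjusted threshold of 0.05. This is not read as a test for Tifa against DZ, and for Birc3 against LZ it is no independent support. The gray points of DZ minus LZ were not tested.

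Across the members, 0 of 10 passed against the zone midpoint in limma and 0 with voom weights, whereas 2.06% of the 10004 tested genes passed in limma (1.26% higher, 0.8% lower). An unadjusted p under 0.05 was reached by 1 of 10 members (Tifa, which entered the fit mainly through DZ) and by 14.7% of all tested genes. The median difference of the members was 0.05, against 0.06 over all tested genes, with 6 above 0 and 4 below. Against DZ 1 of 10 lay past the threshold (Tifa, lower), beside 2.85% of all tested genes in either direction, 2.1% higher and 0.75% lower, and nothing is read from it because Tifa entered the fit through DZ. The other 9 members gave 0 calls there in limma and with voom weights, and 1 of them (Birc2) had an unadjusted p under 0.05, beside 16.3% of all tested genes. The members' median there was 0.21, against 0.12 over all genes. Against LZ 1 of 10 lay past the threshold (Birc3, lower), beside 1.56% of all genes in either direction, 0.69% higher and 0.87% lower. It is no independent support, because the LZ libraries also entered the values Birc3 was chosen by. The medians against LZ were -0.25 for the members and -0.02 for all genes. The comparisons against the zones share the Foxo1-deficient libraries.

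Libraries of Foxo1-deficient cells and DZ did not overlap for 3 members, higher for Traf3 and Birc2 and lower for Tifa, whereas 23.1% of all tested genes did not overlap, 17.3% higher and 5.78% lower. Foxo1-deficient and LZ libraries did not overlap for 2 members, higher for Otub2 and lower for Birc3, against 17.5% of all tested genes, 8.12% higher and 9.37% lower. DZ and LZ libraries did not overlap for 6 members, where the choice of members used this contrast and 22.3% of all tested genes did not overlap, 5.16% higher and 17.1% lower in DZ. Nearest to that line on the overlapping side stood Traf5, Tank, Traf6 and Traf2, with log2 differences of DZ from LZ of 0.32, -0.30, -0.24 and -0.13, and nearest on the other side Traf3 with -0.48 and Traf1 with -0.81. The other separated members had -0.87 (Birc2), -1.10 (Birc3), 1.72 (Otub2) and 1.91 (Tifa). Of all tested genes 1.94% passed between DZ and LZ, 0.56% higher and 1.38% lower in DZ, and their median difference was -0.15. Under quantile normalization and median centring, which brought that median to 0.01 and 0.04, the difference of Traf2 turned to 0.06, and the other members kept their sign.

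Genes with the most similar pattern were sought for the members at both ends of the zone difference, by Pearson's r of log2(FPKM + 1) over the 9 libraries. For Tifa they were Cdc25b (r = 0.977), a phosphatase that drives cells into mitosis, Ret (r = 0.967), a receptor tyrosine kinase, and Lgr5 (r = 0.963), a receptor for R-spondins. Cdc25b averaged 25.7 FPKM in Foxo1-deficient cells, 65.6 in DZ and 26.9 in LZ, whereas Ret averaged 1.97 in DZ and was listed at 0 in 2 Foxo1-deficient libraries. For Birc3 they were Cad (r = 0.981), an enzyme of pyrimidine synthesis, Nt5c2 (r = 0.970), a nucleotidase, and Bcl2a1a (r = 0.967), a survival gene with near-identical copies in the mouse among which reads may be split, so its values are uncertain. Cad averaged 7.05, 6.96 and 12.9 FPKM in Foxo1-deficient, DZ and LZ cells.

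Around the members, 8 lists held 109 names of the pathway, of which 104 were in the files and 89 were tested. Tnfrsf1a, listed at 0 in every wild-type library, entered the test only through Foxo1-deficient libraries and is left out of the counts, which leaves 88 genes. In limma, 2 rose and 0 fell against the zone midpoint (2.27%, beside 2.06% of all tested genes), 5 rose and 0 fell against DZ (5.68%, beside 2.85%), and 1 rose and 2 fell against LZ (3.41%, beside 1.56%). In DZ relative to LZ, 0 rose and 7 fell (7.95%, beside 1.94% of all tested genes in either direction and 1.38% lower). The lists were chosen with earlier results of these data known, so these shares are no independent support. Where limma counted 0, an unadjusted p under 0.05 was reached by 4 lower genes against the midpoint, 1 lower against DZ and 1 higher in DZ than in LZ, and voom also counted 0 in each. Against the midpoint 1 rise was left without Foxo1-deficient replicate 1 or 2, any 1 DZ library or LZ replicate 1 or 3, and 0 without Foxo1-deficient replicate 3. Leaving out any 1 Foxo1-deficient or LZ library brought the calls against LZ to 0, and without DZ replicate 1 or 2 there was 1 fall. Leaving out DZ replicate 1, 2 or 3 brought the 7 falls between the zones to 3, 3 and 2, and leaving out LZ replicate 1, 2 or 3 to 4, 2 and 4. The median differences over these genes were 0.15, 0.29, 0.01 and -0.29 against the midpoint, DZ and LZ and between the zones.

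Receptors that use TRAFs accounted for 3 of the 5 rises against DZ. Cd40, the receptor for T cell help, had 30.9, 21.9 and 24.0 FPKM in Foxo1-deficient libraries, against 8.59, 8.16 and 9.55 in DZ and 39.5, 36.5 and 44.9 in LZ. It rose in Foxo1-deficient cells relative to DZ by 1.44 (SE 0.19, adjusted p = 0.00254, limma), and fell in DZ relative to LZ by 2.08 (SE 0.19, adjusted p = 0.00061, limma), calls that held in all 17 alternatives. Both calls use the same DZ libraries. Tnfrsf13c, the BAFF receptor, which signals through TRAF3, had 214, 184 and 191 FPKM in Foxo1-deficient libraries, against 111, 113 and 68.6 in DZ and 178, 181 and 143 in LZ. It rose relative to DZ by 1.04 (SE 0.19, adjusted p = 0.0171, limma), a gene named after its values were seen, and this call was lost without Foxo1-deficient replicate 1 or 2. Tnfrsf1b, TNF receptor 2, had 6.15, 6.08 and 12.0 FPKM in Foxo1-deficient libraries, against 1.80, 2.04 and 1.34 in DZ and 1.41, 2.17 and 2.02 in LZ. It rose by 1.65 relative to the zone midpoint (SE 0.28, adjusted p = 0.0110, limma), and without Foxo1-deficient replicate 3 the adjusted p was 0.0673 (limma). Tnfrsf1a, TNF receptor 1, had 3.66, 3.19 and 6.46 FPKM in Foxo1-deficient libraries and was listed at 0 in all 6 wild-type libraries, so it is given with no test. Myeloid cells also carry TNF receptors, and the myeloid markers summed to 177.6 to 344.1 FPKM in Foxo1-deficient libraries, against 0.784 to 5.14 in DZ and 3.07 to 7.57 in LZ. Their part in the levels of these 2 receptors was not tested.

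Among 11 tested genes of the Toll and IL-1 receptor branch, Tlr1, a receptor for bacterial lipopeptides, had 34.7, 25.9 and 29.3 FPKM in Foxo1-deficient libraries, against 13.8, 9.08 and 12.3 in DZ and 25.1, 27.5 and 19.8 in LZ. It rose relative to DZ by 1.29 (SE 0.21, adjusted p = 0.00931, limma), in all 17 alternatives, and was lower in DZ than in LZ (log2 difference -0.99, adjusted p = 0.0436, limma), a call kept in 4 of 17 and lost without any 1 DZ or LZ library. The calls of Tlr1 share the DZ libraries. The other 10 tested genes of this list did not pass in limma in any comparison, and voom called 1 of them, Irak2, as higher against the midpoint and against DZ. Irak2 is named after its result was seen.

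NF-kB subunits and their inhibitors, many of them NF-kB targets, gave 4 of the 7 falls in DZ relative to LZ. Nfkb2, the subunit processed in the alternative pathway, had 19.9, 22.5 and 23.3 FPKM in Foxo1-deficient libraries, against 17.3, 14.7 and 11.6 in DZ and 33.4, 38.5 and 34.7 in LZ. It fell in DZ relative to LZ by 1.25 (SE 0.19, adjusted p = 0.00908, limma), in all 17 alternatives, with the Foxo1-deficient libraries between the zones. Nfkbia, the inhibitor IkB alpha, fell by 1.29 (SE 0.22, adjusted p = 0.0156, limma). Nfkbie, the inhibitor IkB epsilon, fell by 1.23 (SE 0.24, adjusted p = 0.0287, limma) and Bcl3, a nuclear IkB protein, fell by 1.21 (SE 0.26, adjusted p = 0.0425, limma). These 3 calls held in 13, 10 and 3 of 17 alternatives. That of Nfkbia was lost without DZ replicate 3 or LZ replicate 2 or 3, that of Nfkbie without any 1 DZ library or LZ replicate 1 or 2, and that of Bcl3 without any 1 DZ or LZ library. In Foxo1-deficient cells relative to LZ, Bcl3 also fell by 1.22 (SE 0.26, adjusted p = 0.0425, limma), a call kept in 3 of 17 and lost without any 1 library of the 9. That call shares the LZ libraries with the fall of Bcl3 in DZ. Nfkbiz, another nuclear IkB protein, had 4.74, 6.00 and 6.76 FPKM in Foxo1-deficient libraries, against 0.92, 1.10 and 0.83 in DZ and 2.65, 4.52 and 3.55 in LZ. It rose relative to DZ by 1.80 (SE 0.28, adjusted p = 0.00721, limma) in all 16 alternatives it could be tested in, and relative to the zone midpoint by 1.19 (SE 0.25, adjusted p = 0.0307, limma) in 5 of 15, a call kept without LZ replicate 2 and lost without any 1 of the other libraries.

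Of 21 ubiquitin enzymes and binders, limma called 1, Tnfaip3, which encodes the deubiquitinase A20 and is an NF-kB target. It had 3.80, 3.97 and 3.49 FPKM in Foxo1-deficient libraries, against 4.06, 3.62 and 3.43 in DZ and 13.6, 10.3 and 9.80 in LZ. It fell relative to LZ both in Foxo1-deficient cells (log2 difference -1.35, SE 0.24, adjusted p = 0.0218, limma) and in DZ (log2 difference -1.37, SE 0.24, adjusted p = 0.0179, limma). These calls share the LZ libraries and are not independent. Leaving out any 1 Foxo1-deficient or LZ library ended the call in Foxo1-deficient cells, and the call in DZ held in 12 of 17 alternatives and was lost without any 1 DZ library or without LZ replicate 1 or 2. Voom called 2 further genes of this list, named after their results were seen, Cblb as higher against the midpoint and Siah2 as lower in DZ than in LZ. The levels of Tnfaip3 stood apart in LZ as those of Birc3 did. The other TRAF family genes (10 tested), the kinases downstream of TRAFs (16), the IAP family and its antagonists (6) and the antigen receptor branch (6) gave 0 calls in limma in all 4 comparisons. Of these 38 genes, 4, 6, 2 and 6 had an unadjusted p under 0.05 against the midpoint, DZ and LZ and between the zones, beside 14.7%, 16.3%, 13.4% and 15.4% of all tested genes. Voom called 0, 2, 0 and 1 of them, beside 3.23%, 2.80%, 1.31% and 2.61% of all tested genes.

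**Figure D4:**
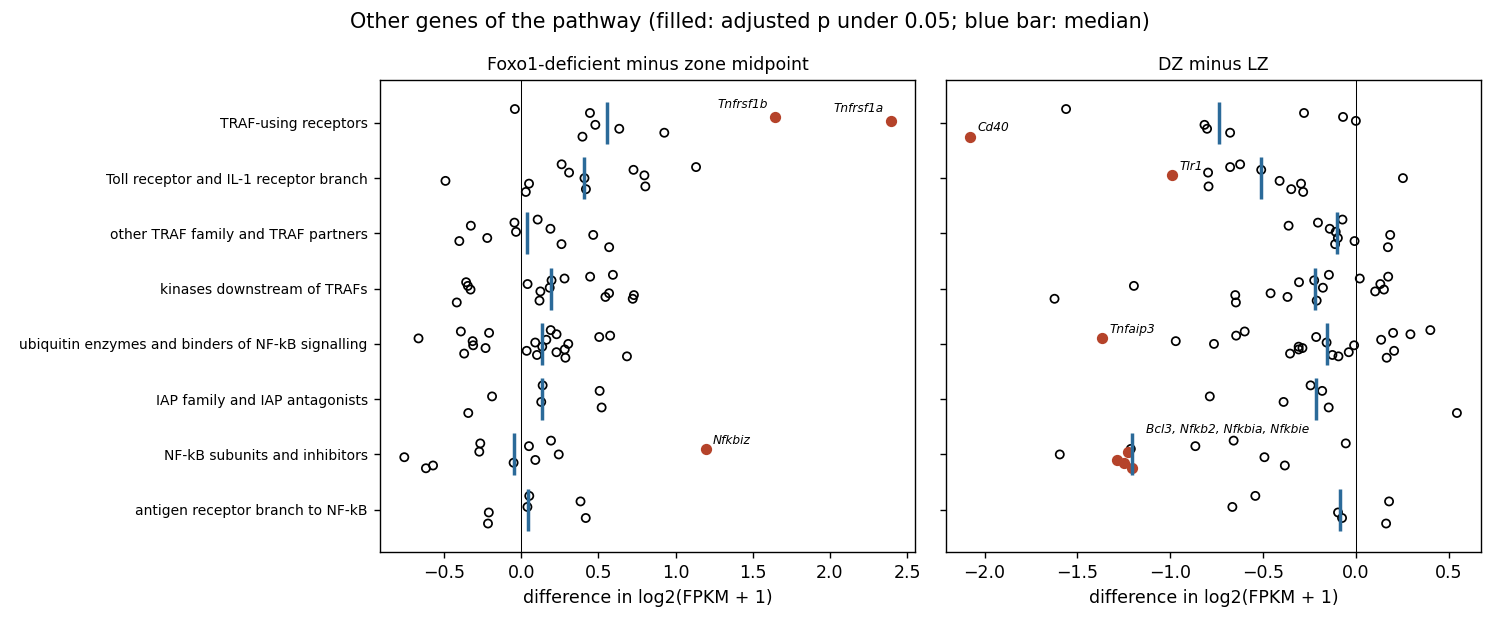
Log2(FPKM + 1) differences of the 89 tested genes in the 8 pathway lists, for Foxo1-deficient minus zone midpoint and DZ minus LZ, with 1 point per gene and a blue bar for the list's median. Filled and named are the genes past an adjusted p of 0.05 (limma), 3 to the right against the midpoint, of which Tnfrsf1a entered only through Foxo1-deficient libraries, and 7 to the left between the zones.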

How the data were processed

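RNA was sequenced from sorted mouse germinal center B cells in 9 libraries, 3 per group. Tools listed in the submitters' processing notes are Cufflinks 2.1.1 and TopHat2 2.0.8, and the build is mm9. Per the file headers, the authors deposited 1 gene table per library with FPKM values, interval bounds and a status. Which fragment total FPKM was scaled to was not stated. Of 23700 entries, 716 entries of 250 repeated symbols and 7 genes with a failed estimate were left out, which left 22977 genes. The 10004 genes that reached 1 FPKM in 3 or more libraries were tested with limma 3.58.1 (R 4.3.3) on log2(FPKM + 1), with an intensity trend, all libraries in 1 fit and two-sided Benjamini-Hochberg p-values over all tested genes (threshold 0.05). The same code was tested on simulated data. Foxo1-deficient minus zone midpoint was the main test of the members, because it does not depend on the zone difference they were chosen by. For Tifa this does not hold in full, because it passed the expression filter mainly through its DZ libraries. Members, lists and motifs were chosen with earlier results of these data known. Besides the members, the genes named are, per pathway list and comparison, at most 3 genes past the threshold with the largest change, the 3 genes most correlated with the members at both ends of the zone difference, Foxo1, and neighbouring genes. Tnfrsf13c, Irak2, Cblb and Siah2 fall outside this rule and were named after their values were seen.

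Depth is not stated. Deposited intervals, taken as 2 SD of a Poisson count, implied 1776730 to 2481280 fragments per library and a median of 18 (Tifa) to 344 (Traf3) per member. The Poisson reading is an assumption, and the bounds were not always centred on the value (Traf1 in LZ replicate 1: 32.1 FPKM, bounds 27.1 to 34.3). Each interval comes from a single library and does not cover variation between libraries. No label ties replicates to separate animals. The p-values therefore reflect variation among these samples only, which may be technical. Same-numbered libraries of different groups were not treated as pairs, since their deviations from the group means correlated at -0.07 to 0.08. Libraries with different numbers gave -0.11 to 0.05. Such small values cannot exclude that same-numbered libraries share an animal or day. Promoter sequences are from RefSeq on GRCm38.p6, and gene coordinates are the files' own, on mm9.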

Additional observations from a re-analysis of the deposited data

How the results depend on the processing

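As reported, 206, 285, 156 and 194 genes passed for Foxo1-deficient minus zone midpoint, minus DZ, minus LZ and for DZ minus LZ. With no expression filter, which tests more genes, they were 136, 166, 59 and 68. Fitting only the groups compared, with fewer libraries, gave 58 for Foxo1-deficient minus LZ and 122 for DZ minus LZ. Against the midpoint, quantile normalization gave 312, median centring 314 and voom weights 323. Against LZ, a pseudocount of 0.1 gave 99 and a minimum of 5 FPKM gave 96. Leaving out 1 replicate at a time gave 56 to 168 against the midpoint, 119 to 245 against DZ, 41 to 141 against LZ and 73 to 215 between the zones. The cause of these shifts was not tested beyond the number of genes or libraries. Scaling moved the balance of higher to lower calls: main 126 and 80, quantile 178 and 134, median centring 137 and 177 against the midpoint; main 210 and 75, quantile 219 and 141, median centring 181 and 225 against DZ; main 69 and 87, quantile 103 and 110, median centring 95 and 114 against LZ; main 56 and 138, quantile 89 and 119, median centring 133 and 101 between the zones.

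Among the members, Tifa entered the fit mainly through its DZ libraries, which also form part of the midpoint. Its results against the midpoint are therefore no independent support. Tifa lay past the threshold under quantile normalization (adjusted p = 0.0179, limma) and median centring (adjusted p = 0.0285, limma). It did not pass with voom weights (adjusted p = 0.244), no filter (0.201), a pseudocount of 0.1 (0.105), or the values of 0 left out (0.481), and was not testable with a minimum of 5 FPKM.

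With the replicate number as a block, 191 genes passed against the midpoint, 221 against DZ, 137 against LZ and 161 between the zones. Same-numbered samples did not deviate together, so these numbers were not taken as pairs. Of the members' calls, Birc3 against LZ missed the threshold under the block (adjusted p = 0.0684, limma). Tifa against the midpoint had an adjusted p of 0.0926 (limma) under it. Of the members, Tifa had the lowest median of estimated fragments per library (18).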
